A study of Mus musculus with 12 samples.

Results

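The let-7 family of microRNAs (miRNAs) was described member by member in sorted cells of the early mouse pancreas and its endodermal precursors. The members were every entry of the deposited count table named let-7a to let-7k, mature arms and precursors alike, together with miR-98, which carries the let-7 seed. The rule took 26 of the 1053 entries of the table, of which 9 were mature 5p arms (mmu-let-7a-5p, mmu-let-7b-5p, mmu-let-7c-5p, mmu-let-7d-5p, mmu-let-7e-5p, mmu-let-7f-5p, mmu-let-7g-5p, mmu-let-7i-5p and mmu-miR-98-5p), 4 were mature 3p arms and 13 were precursors. An arm is the strand of the hairpin from which the mature miRNA is cut, and a precursor entry counts reads that were assigned to the hairpin itself. The reads kept had at most 36 bases, so a precursor entry does not count whole hairpins.

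Small RNA was sequenced from 12 libraries in 4 stages with 3 libraries each, named by embryonic day (E). The E8.5 cells were Foxa2-CreER, tdtomato+ endoderm from whole embryos, in which a Cre recombinase driven by Foxa2 and activated by tamoxifen given to the dam switched on the red protein tdTomato. The cells of the 3 later stages (E9.5 to E11.5) were Pdx1-Cre, tdtomato+ and came from the trunk, and Pdx1 is active in the pancreatic and duodenal epithelium. All cells were sorted for tdTomato, and no other treatment is named in the labels. Between E8.5 and E9.5 the driver of Cre, the region taken and the stage thus changed together, and they cannot be told apart. Each stage carried its own number in the library names, so a batch marked by that number and the stage cannot be told apart either. Males of the lineage-tracing crosses carried a mir-302 allele replaced by eGFP per the study's methods, and which mir-302 alleles the embryos had is not given in the sources used here. Nothing in the sources says whether replicates came from separate litters or pools, so p-values measure the spread between these libraries. In sorted bulk samples, fewer cells of a type and less RNA per cell cannot be told apart.

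The let-7 miRNAs are known as a large family whose mature forms rise as embryonic cells leave the pluripotent state. Like other miRNAs they guide Argonaute proteins to partly complementary mRNAs, and the seed, bases 2 to 8 of the mature strand, sets most of that pairing. Their output is controlled after transcription as well, since Lin28 proteins bind let-7 precursors and keep them from being processed. Several genomic copies encode the same mature strand, so a mature count can sum over loci. A precursor entry is named after 1 locus, but reads from a run shared by 2 hairpins do not tell their loci apart.

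All 13 mature members were matched to a RefSeq sequence (GRCm38.p6), and the 9 mature 5p arms are shown because each comparison rests on telling them apart. Capitals mark the seed, which was GAGGUAG in all 9 arms. In RefSeq 11 of 1679 mature sequences began with this seed at base 2.
mmu-let-7a-5p: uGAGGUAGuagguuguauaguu
mmu-let-7b-5p: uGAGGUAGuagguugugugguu
mmu-let-7c-5p: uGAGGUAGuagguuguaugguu
mmu-let-7d-5p: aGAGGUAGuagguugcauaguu
mmu-let-7e-5p: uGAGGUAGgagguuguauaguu
mmu-let-7f-5p: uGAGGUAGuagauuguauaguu
mmu-let-7g-5p: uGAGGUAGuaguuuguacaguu
mmu-let-7i-5p: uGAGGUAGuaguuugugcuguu
mmu-miR-98-5p: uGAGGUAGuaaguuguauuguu
Counted from 1 at the 5′ end, and with the base of let-7a-5p written before the position, let-7c-5p differed by A19G, let-7e-5p by U9G and let-7f-5p by G12A. In the same notation let-7b-5p differed by A17G and A19G, let-7d-5p by U1A and U16C, let-7g-5p by G12U and U18C, and miR-98-5p by G11A and A19U. The most distant from let-7a-5p was let-7i-5p, with G12U, A17G, U18C and A19U. Of the 36 pairs of 5p arms, 4 were a single base apart and the farthest pair differed at 6 bases. All 9 arms were 22 bases long, so their levels were compared without a correction for length. Arms that are a single base apart can exchange reads through sequencing errors, and how the authors' counting treated such reads is not given in the sources used here.

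The 13 precursor entries were matched to RefSeq hairpins on 8 chromosomes (GRCm38.p6, with the overlapping genes from GENCODE M21). The hairpins of let-7a-1 (chr13:48538179-48538272), let-7f-1 (chr13:48537829-48537917) and let-7d (chr13:48536012-48536114) lay on the minus strand in exons of the long non-coding RNA 6720427I07Rik. The hairpins of let-7b (chr15:85707319-85707403) and let-7c-2 (chr15:85706603-85706697) lay 621 bases apart on the plus strand in exons of Lncppara. Hairpins in introns were those of let-7a-2 (chr9:41536716-41536811, plus strand, in 3110039I08Rik and Gm49317), let-7c-1 (chr16:77599657-77599750, plus strand, in Mir99ahg), let-7e (chr17:17830352-17830444, plus strand, in Spaca6), let-7g (chr9:106178840-106178927, plus strand, in Wdr82), let-7f-2 (chrX:151912346-151912428, plus strand, in Huwe1) and mir-98 (chrX:151913214-151913321, plus strand, in Huwe1). The let-7i hairpin (chr10:122985640-122985724, minus strand) overlapped an exon of the transcribed pseudogene D630033A02Rik, and no gene overlapped the let-7k hairpin (chr5:147283189-147283298, minus strand).

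The hairpins of let-7a-1, let-7a-2, let-7b and let-7e are shown because the first 2 encode the same mature strand and the other two encode the members that moved apart most within the family. Capitals mark the mature 5p arm.
mmu-let-7a-1: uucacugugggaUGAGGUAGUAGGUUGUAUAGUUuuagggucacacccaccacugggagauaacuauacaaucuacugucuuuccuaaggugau
mmu-let-7a-2: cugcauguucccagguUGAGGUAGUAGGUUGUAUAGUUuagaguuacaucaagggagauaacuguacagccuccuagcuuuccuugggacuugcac
mmu-let-7b: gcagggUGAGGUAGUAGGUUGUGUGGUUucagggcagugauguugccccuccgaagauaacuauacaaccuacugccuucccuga
mmu-let-7e: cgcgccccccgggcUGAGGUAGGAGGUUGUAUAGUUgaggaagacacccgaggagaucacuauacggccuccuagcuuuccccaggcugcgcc
The let-7a-1 and let-7a-2 hairpins shared a longest run of 23 bases, the mature arm included, so a read from that run alone does not tell the loci apart. The letters GGAG, which Lin28 proteins are known to contact in let-7 precursors, stood between the arms of 9 of the 12 hairpins whose 2 arms are in RefSeq, on the transcribed strand. They were not found there in let-7b, let-7c-2 and mir-98. Anywhere in the hairpin, GGAG was found in 10 of the 13 member hairpins and in 447 of 1005 RefSeq hairpins (44.5%).

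Levels are given as CPM, the deposited counts of an entry divided by the library's total, corrected by a composition factor (TMM), and expressed per 1e+06 reads. The E8.5 libraries held 386094 to 594224 counts in all, the E9.5 libraries 53996 to 80075, the E10.5 libraries 133435 to 267978 and the E11.5 libraries 417743 to 1103383. A count of 3, taken as the detection floor, stood for 4.34 to 7.75 CPM in the E8.5 libraries, for 32.0 to 75.9 CPM in those of E9.5, for 11.4 to 25.8 CPM in those of E10.5 and for 2.74 to 6.84 CPM in those of E11.5. The sum of the 9 mature 5p arms held 4616 to 5117 reads per library of E8.5 and 4622 to 5633 reads per library of E9.5, although the E9.5 libraries were several times smaller. It held 2613 to 7473 reads per library of E10.5 and 25492 to 49692 of E11.5. Mean sums at E8.5, E9.5 and E10.5 were 4860, 5221 and 4990 reads, against mean totals of 500102, 66072 and 214144 counts. The high CPM at E9.5 thus went with small totals, and the part of depth in it was not tested. As a share of counts, the 9 arms took 1.01% ± 0.283 (SD, n = 3), 8.21% ± 2.34, 2.29% ± 0.702 and 5.22% ± 0.813 from the earliest stage to the latest. The E9.5 libraries stood apart in composition as well. The precursor entries mir-6236 and mir-6240 took 12.7 to 28.3% of their counts, against at most 3.10% in any other library, with the highest share in E9.5 replicate 3.

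Marker miRNAs were summed to check the labels and to look for other cell types. The pancreatic markers miR-375-3p and miR-7a-5p summed to 22979 to 27499, 33859 to 58851, 96403 to 139059 and 72995 to 111243 CPM over the 4 stages in order. The hepatic marker miR-122-5p was at 463 to 593 CPM in the E8.5 endoderm and at 38765 to 130754 CPM in the 9 later libraries. The 5 epithelial markers, the miR-200 family, summed to 9026 to 11028 CPM at E8.5 and 16457 to 38948 CPM later. Of 4 leukocyte markers 2 were in the table, and they summed to 10.7 to 2655 CPM at E9.5 and to at most 59.3 CPM in the other libraries, while the 2 of 4 erythroid markers in the table stayed under 834 CPM in every library. The 3 muscle markers summed to 5278 to 26855 CPM over the 6 libraries of E8.5 and E9.5 and to at most 3518 CPM later. The 5 mesenchymal markers summed to 1410 to 4982 CPM at E9.5 and to 3376 to 13171 CPM elsewhere, the 2 endothelial markers to 1821 to 2281 CPM at E8.5 and at most 429 CPM later, and the 3 neural markers to at most 507 CPM. The leukocyte sum and the share of mir-6236 and mir-6240 were thus highest at E9.5. There let-7a-5p, let-7b-5p, let-7c-5p, let-7d-5p, let-7f-5p, let-7g-5p and miR-98-5p also had their highest means. At E9.5 the hepatic marker averaged 64756 CPM, above the pancreatic sum of 47790 CPM, while at the other stages the pancreatic sum was higher. The muscle sum averaged 16131 CPM at E8.5, 12829 CPM at E9.5 and 1509 CPM at E10.5. The part of these signals in the results was not tested.

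Within the family, 5 of the 9 mature 5p arms carried nearly all reads. The arms of let-7a, let-7b, let-7c, let-7e and let-7f held 87.1 to 98.4% of the 5p counts in every library, with 219 to 15212 reads each. Over all 12 libraries let-7c-5p had 42501 reads, let-7a-5p 40721, let-7e-5p 39098, let-7f-5p 19022 and let-7b-5p 12850. The other 4 arms were thinner, with 4952 reads for let-7g-5p, 2270 for let-7i-5p, 1100 for let-7d-5p and 354 for miR-98-5p. Among the mature entries of a library the rank of let-7b-5p moved the farthest of the 5 abundant arms, from position 2 in E9.5 replicate 3 to position 180 in E8.5 replicate 3.

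**Figure D1:**
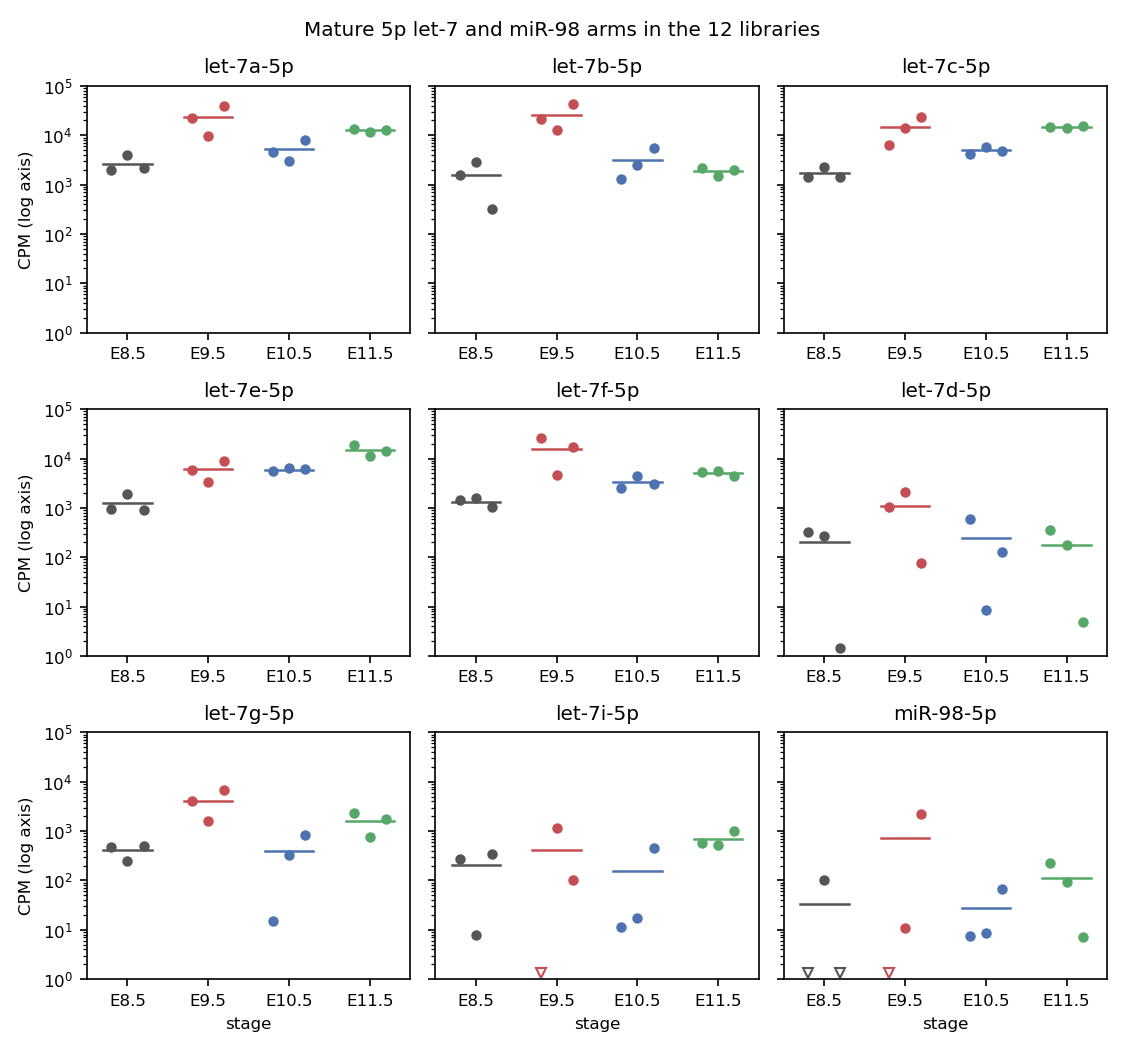
CPM (log axis) of the 9 mature 5p arms by stage, with 1 point per library in replicate order, a line at the mean of 3 libraries and an open triangle at the bottom for a library at 0 counts. The arms let-7a, let-7b, let-7c and let-7f dip between E9.5 and E10.5, let-7e-5p has means of 6080 and 5996 CPM there on this TMM scale (a log2 step of -0.59 under RLE scaling), and the 4 thinner arms scatter widely within a stage.

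The let-7b-5p arm had a peak at E9.5 and was low on either side of it. Its levels were 1582, 2891 and 317 CPM at E8.5 (replicates 1 to 3), then 21793, 12879 and 43999 CPM at E9.5, 1298, 2508 and 5649 CPM at E10.5, and 2134, 1476 and 2016 CPM at E11.5. Every E9.5 library lay above every library of the other stages, and the ranges at E8.5, E10.5 and E11.5 overlapped. From E8.5 to E9.5 the arm rose by 4.04 on the log2 scale (SE 0.68, adjusted p = 0.000283, edgeR quasi-likelihood test), from 1597 ± 1287 to 26224 ± 16026 CPM (SD, n = 3). It then decreased by 3.06 to E10.5 (SE 0.65, adjusted p = 0.00824 in edgeR). Between E9.5 and E11.5 it decreased by 3.81 (SE 0.68, adjusted p = 0.00109 in edgeR). From low to high the stage means ran E8.5, E11.5, E10.5, E9.5, and of the neighbours in that order only the last pair differed past the threshold. At E11.5 let-7b-5p was back at 1875 ± 350 CPM, and the comparison with E8.5 did not pass (log2 fold change 0.23, adjusted p = 0.917 in edgeR).

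The let-7e-5p arm was lowest at E8.5 and highest at E11.5, with no call between E9.5 and E10.5. It stood at 944, 1873 and 902 CPM at E8.5, then 5749, 3364 and 9129 CPM at E9.5, 5508, 6313 and 6168 CPM at E10.5, and 19180, 11256 and 14056 CPM at E11.5. The E8.5 libraries lay below all others and the E11.5 libraries above all others, while E9.5 and E10.5 overlapped. The arm rose by 2.29 on the log2 scale from E8.5 to E9.5 (SE 0.46, adjusted p = 0.00208 in edgeR). From E9.5 to E10.5 its log2 fold change was -0.02 (SE 0.44, adjusted p = 0.992 in edgeR), from 6080 ± 2897 to 5996 ± 429 CPM. The size of this step depended on the scaling, with -0.59 under RLE scaling (adjusted p = 0.525), -0.58 in DESeq2 (adjusted p = 0.496), -0.08 with mature arms only and 0.12 with library size alone in edgeR, and no alternative called it. The step to E11.5 was 1.31 (SE 0.45) and missed the threshold with an adjusted p of 0.298 in edgeR. Across the whole course let-7e-5p rose by 3.58 (SE 0.49, adjusted p = 1.49e-05 in edgeR), from 1240 ± 549 to 14831 ± 4018 CPM, and it was already higher at E10.5 than at E8.5 (log2 fold change 2.27, SE 0.46, adjusted p = 0.00192 in edgeR).

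The let-7c-5p arm, which differs from let-7b-5p at a single base, was high at both E9.5 and E11.5. Its levels were 1411, 2284 and 1436 CPM at E8.5, then 6366, 14149 and 23466 CPM at E9.5, 4149, 5875 and 4804 CPM at E10.5, and 14461, 13914 and 15153 CPM at E11.5. The E9.5 and E11.5 libraries overlapped, with means of 14661 and 14509 CPM. The E8.5 libraries lay below all others and the E10.5 libraries in between. The arm rose by 3.10 on the log2 scale from E8.5 to E9.5 (SE 0.45, adjusted p = 5.61e-05 in edgeR) and decreased by 1.57 to E10.5 (SE 0.43, adjusted p = 0.0337 in edgeR). The call at E10.5 was lost when any of 8 of the 12 libraries was left out, with adjusted p-values up to 0.194. From E10.5 to E11.5 the log2 fold change was 1.55 (SE 0.43), and its adjusted p of 0.202 in edgeR was the smallest of any member in that comparison. Over the whole course let-7c-5p rose by 3.08 (SE 0.45, adjusted p = 3.77e-05 in edgeR), and it was higher at E10.5 than at E8.5 (log2 fold change 1.53, SE 0.43, adjusted p = 0.0249 in edgeR), a call that was lost without E8.5 replicate 1 or 3 or E10.5 replicate 2 (adjusted p up to 0.138).

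The let-7a-5p and let-7f-5p arms, a single base apart, followed a similar course. For let-7a-5p the levels were 1939, 3955 and 2141 CPM at E8.5, then 22653, 9547 and 39574 CPM at E9.5, 4533, 3041 and 7964 CPM at E10.5, and 13417, 11596 and 12725 CPM at E11.5. For let-7f-5p they were 1422, 1581 and 1034 CPM at E8.5, then 26161, 4571 and 17170 CPM at E9.5, 2478, 4338 and 3055 CPM at E10.5, and 5389, 5664 and 4400 CPM at E11.5. In both arms E9.5 spread the most and did not overlap E8.5 or E10.5, whereas E9.5 and E11.5 overlapped. From E8.5 to E9.5 let-7a-5p rose by 3.16 on the log2 scale (SE 0.49, adjusted p = 8.46e-05 in edgeR) and let-7f-5p by 3.57 (SE 0.55, adjusted p = 8.37e-05 in edgeR). To E10.5 let-7a-5p decreased by 2.21 (SE 0.47, adjusted p = 0.00824 in edgeR) and let-7f-5p by 2.28 (SE 0.52, adjusted p = 0.0111 in edgeR). Between E8.5 and E11.5 both were higher at the later stage, let-7a-5p by 2.23 (SE 0.47, adjusted p = 0.00192 in edgeR) and let-7f-5p by 1.94 (SE 0.51, adjusted p = 0.0152 in edgeR).

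The 4 thinner arms gave no call in any of the 6 comparisons in the main edgeR fit with TMM. The nearest was let-7g-5p, which stood at 484, 253 and 505 CPM at E8.5, then 4027, 1570 and 6752 CPM at E9.5, 15.2, 335 and 838 CPM at E10.5, and 2382, 752 and 1729 CPM at E11.5. Its E9.5 libraries lay above those of E8.5 and E10.5 without overlap, with an adjusted p of 0.0516 for E9.5 against E8.5 and of 0.0566 for E10.5 against E9.5 in edgeR. With mature arms only, 6 entries were called higher for E9.5 against E8.5 and 5 lower for E10.5 against E9.5. Of these, 5 and 4 were calls of the main fit, and let-7e-5p was not called over the later step. In each comparison an entry outside the abundant arms was thus called, and its name is not given here. The let-7i-5p arm stood at 270, 7.75 and 338 CPM at E8.5, then 0, 1153 and 101 CPM at E9.5, 11.4, 17.2 and 444 CPM at E10.5, and 563, 528 and 989 CPM at E11.5. Its 3 E11.5 libraries lay close together and above those of E8.5 and E10.5, and its smallest adjusted p was 0.620 in edgeR. The let-7d-5p arm stood at 329, 274 and 1.45 CPM at E8.5, then 1056, 2114 and 75.9 CPM at E9.5, 586, 8.59 and 129 CPM at E10.5, and 356, 173 and 4.81 CPM at E11.5. In each stage 1 library had only 1 to 4 reads, and all stages overlapped. The miR-98-5p arm was at 0, 101 and 0 CPM at E8.5, then 0, 10.7 and 2175 CPM at E9.5, 7.61, 8.59 and 66.2 CPM at E10.5, and 228, 93.3 and 7.22 CPM at E11.5, so its E9.5 mean rested on replicate 3. Of the 48 values of these 4 arms, 4 were 0, 13 were 1 to 6 reads, 1 lay at 7 to 30 reads and 30 were above 30 reads, so most were either close to nothing or well detected. None of the 4 could be called absent from a stage, since each was detected in at least 1 library of every stage.

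Taken by comparison, each abundant let-7 arm had a higher CPM in the E9.5 libraries than in those of the E8.5 endoderm. The edgeR test called 5 of the 19 let-7 entries that passed the filter on low counts, all of them higher and all abundant 5p arms, where 5.60% of all 571 entries were called (23 higher and 9 lower). The median log2 fold change of the 9 mature 5p arms was 3.16, against -0.84 over all entries tested. With RLE scaling in place of TMM the median of all entries shifted by 0.64, and 44 entries were called higher and 6 lower. The 5 let-7 calls held under all 3 other scalings tried, and their log2 fold changes ran from 2.02 for let-7e-5p to 4.81 for let-7b-5p when the processing was varied with all libraries kept. Only limma voom lost a call there, that of let-7e-5p (adjusted p = 0.0845). Without E9.5 replicate 3, the library with the most mir-6236 and mir-6240, all 5 arms remained called, with log2 fold changes of 2.70 for let-7a-5p, 3.58 for let-7b-5p, 2.62 for let-7c-5p, 1.98 for let-7e-5p and 3.62 for let-7f-5p. E9.5 replicates 1 and 2 still held 12.7 and 14.0% of these precursor counts. This fit thus does not separate the calls from that composition, whose part was not tested.

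From E9.5 to E10.5, both in Pdx1-Cre cells, 4 of the 5 abundant arms fell and let-7e-5p was not called. The edgeR test called 5 entries, all lower, namely let-7a-5p, let-7b-5p, let-7c-5p, let-7f-5p and the let-7a-2 precursor, where 4.38% of all entries were called (9 higher and 16 lower, or 1 and 23 with RLE scaling). The median log2 fold change of the 9 mature 5p arms was -2.21, against 0.17 over all entries. The calls were less firm than those at E9.5. Without E10.5 replicate 2 only let-7f-5p remained called, and let-7b-5p and let-7a-5p reached adjusted p-values of 0.0524 and 0.0594. Without E9.5 replicate 1, let-7f-5p was lost (adjusted p = 0.0753). Without E10.5 replicate 1 there were 3 calls, and without E9.5 replicate 2 there were 8. In limma voom none of the 19 entries was called, and DESeq2 called 8, all lower. The share of all entries called in these alternative fits is not given here, so their counts were not compared with the whole table.

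Between E10.5 and E11.5 no let-7 entry was called in edgeR, where 0.350% of all entries were called and 61 of 571 had an unadjusted p under 0.05. The median log2 fold change of the mature 5p arms was 1.31, against 0.07 over all entries, and that of let-7b-5p was -0.75 (adjusted p = 0.741 in edgeR). DESeq2 also called none of the 19 entries, limma voom called let-7c-5p alone, and 1 entry was called when E9.5 replicate 1 or 3 was left out. Comparing E10.5 with E8.5, let-7c-5p and let-7e-5p were called higher, where 8.58% of all entries were called (25 higher and 24 lower). DESeq2 called these 2 higher there and also the precursors of let-7b, let-7c-1 and let-7c-2 lower. Comparing E11.5 with E9.5, let-7b-5p alone was called lower, where 4.55% of all entries were called (7 higher and 19 lower, or 0 and 27 with RLE scaling), and RLE scaling called 3 entries lower there. There were 3 calls without E9.5 replicate 2 and 2 without E10.5 replicate 1, all lower. Without E9.5 replicate 3 there were 2, with 1 higher and 1 lower. Comparing E11.5 with E8.5, let-7a-5p, let-7c-5p, let-7e-5p and let-7f-5p were called higher, where 11.6% of all entries were called, and let-7f-5p was lost without E8.5 replicate 3 (adjusted p = 0.0947). Comparisons that share a stage share its 3 libraries, so these values are not independent of each other.

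**Figure D2:**
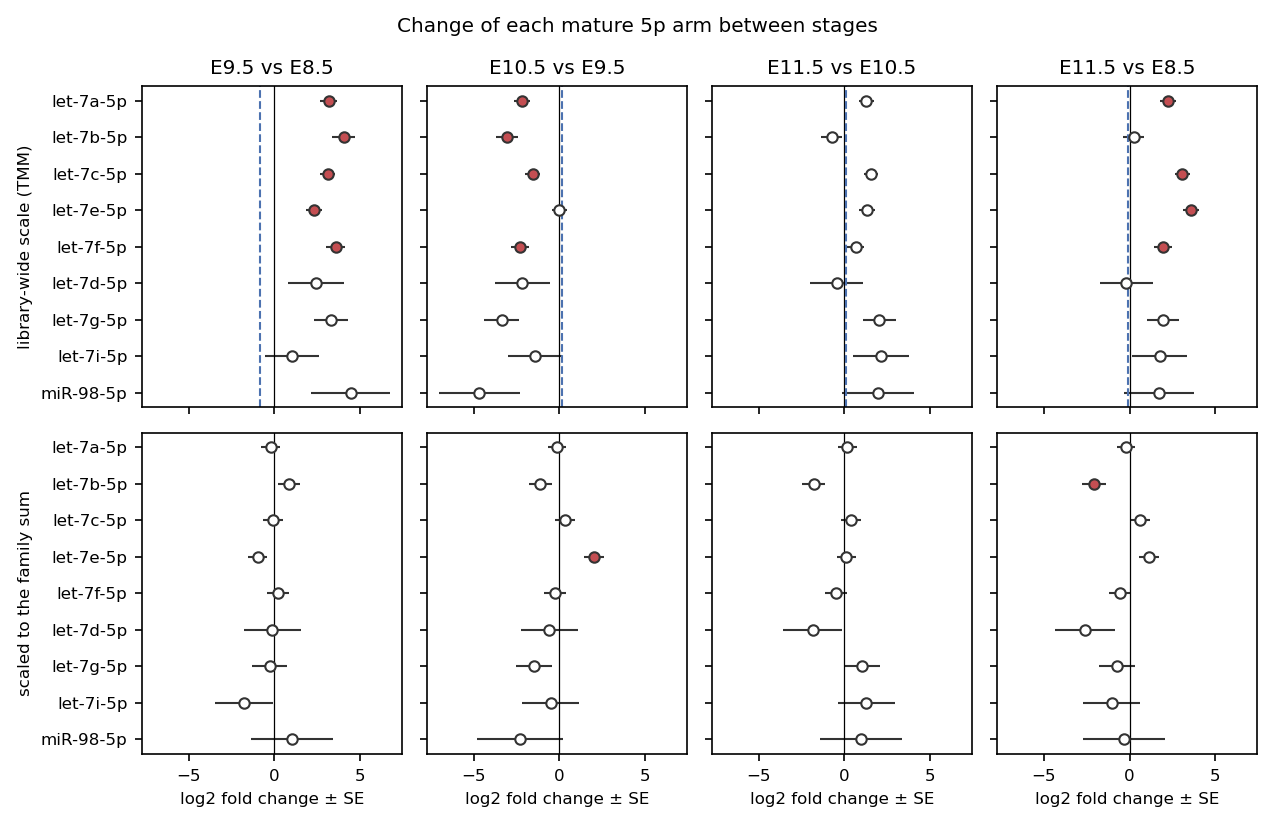
Log2 fold change ± SE of the 9 mature 5p arms in 4 comparisons, with edgeR on the library-wide TMM scale in the upper panels and scaled to the sum of the 9 arms in the lower panels. Red points have an adjusted p under 0.05, and the dashed blue line is the median of all 571 entries on the TMM scale. On the family scale only let-7e-5p (E10.5 against E9.5) and let-7b-5p (E11.5 against E8.5) are red.

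To compare the members with each other rather than with the rest of the library, each arm was taken as a share of the 9 mature 5p arms. The largest shifts were those of let-7b-5p and let-7e-5p, whose shares moved in opposite directions between E9.5 and E11.5. The let-7b-5p share was 18.9, 21.9 and 4.74% at E8.5, 24.8, 26.1 and 30.9% at E9.5, 6.98, 11.2 and 19.4% at E10.5, and 3.67, 3.25 and 3.95% at E11.5. The let-7e-5p share was 11.3, 14.2 and 13.5% at E8.5, 6.55, 6.82 and 6.41% at E9.5, 29.6, 28.1 and 21.2% at E10.5, and 33.0, 24.8 and 27.5% at E11.5. At E9.5 let-7b-5p exceeded let-7e-5p in every library, and at E10.5 and E11.5 let-7e-5p exceeded let-7b-5p in every library. In the 3 libraries of E9.5 the let-7e-5p share spread by only 0.207 percentage points (SD) around 6.59%.

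The stage means of the other abundant arms lay closer together. The let-7a-5p share averaged 28.4% ± 4.67, 24.3% ± 4.41, 21.8% ± 7.27 and 24.5% ± 1.26 over the 4 stages in order (SD, n = 3). The let-7c-5p share averaged 18.5% ± 2.58, 17.5% ± 10.7, 21.7% ± 4.87 and 28.4% ± 3.07 at the same stages, and ran from 7.25 to 28.7% among the E9.5 libraries alone. The let-7f-5p share averaged 14.8% ± 2.57, 17.04% ± 11.1, 14.4% ± 4.51 and 10.1% ± 2.06, with 29.8% in E9.5 replicate 1. E9.5 replicate 1 was therefore rich in let-7f-5p and poor in let-7c-5p. The let-7g-5p share was at most 7.56%, and those of let-7d-5p, let-7i-5p and miR-98-5p were at most 4.28, 5.07 and 1.53%.

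**Figure D3:**
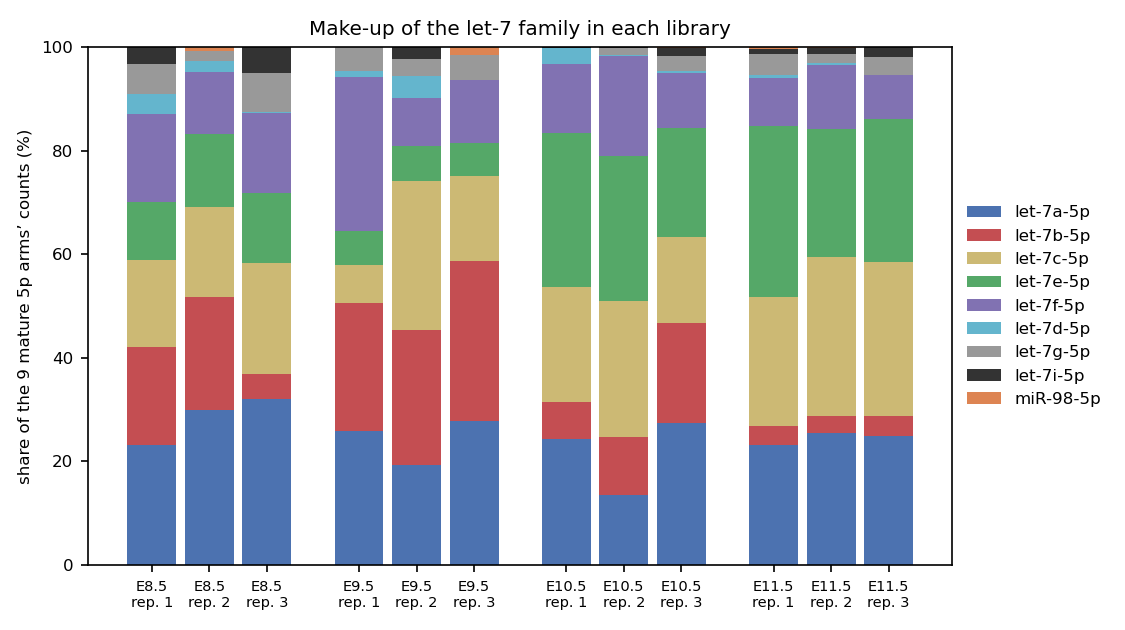
Stacked bars give the percent of the counts of the 9 mature 5p arms held by each arm in each of the 12 libraries, in order of stage and replicate. The red let-7b-5p segment is widest at E9.5 (24.8 to 30.9%) and narrowest at E11.5 (3.25 to 3.95%), and the green let-7e-5p segment runs the other way (6.41 to 6.82% against 24.8 to 33.0%).

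The shift was tested with the same edgeR fit scaled to the sum of the 9 arms, so that a call means a change relative to the family. Adjustment ran over all 571 entries, so the adjusted p of an arm also depended on the other entries. Calls and missed calls thus do not compare directly between comparisons. Relative to the family, let-7b-5p was not called from E9.5 to E10.5 (log2 fold change -1.12, SE 0.66, adjusted p = 0.212 in edgeR). Over the same step let-7e-5p rose by 2.00 on the log2 scale (SE 0.58, adjusted p = 0.0186 in edgeR). On this scale 18.0% of all entries were called, 100 higher and 3 lower, with a median log2 fold change of 1.99 over all entries, so let-7e-5p moved away from the rest of its family by about as much as the median entry of the table. The call was lost without E10.5 replicate 1 (adjusted p = 0.0569), with no filter on low counts (0.0529) and in the fit of the 2 stages alone (0.0923). From E9.5 to E11.5 let-7b-5p decreased by 2.91 (SE 0.70, adjusted p = 0.0117 in edgeR) and let-7e-5p rose by 2.11 (SE 0.58, adjusted p = 0.0280 in edgeR), where 4.38% of all entries were called (11 higher and 14 lower, with a median of 1.21). The let-7e-5p call was lost with the replicate number as a block (adjusted p = 0.0850) and with no filter on low counts (0.0906). Leaving out any of the 3 E11.5 libraries took both calls past the threshold, with adjusted p-values of 0.0503 to 0.0806 for let-7b-5p and 0.0869 to 0.110 for let-7e-5p, while the log2 fold changes moved by little. Leaving out E9.5 replicate 1 also lost let-7e-5p (adjusted p = 0.0511). From E8.5 to E11.5 let-7b-5p decreased by 2.07 (SE 0.68, adjusted p = 0.0241 in edgeR), where 29.4% of all entries were called (6 higher and 162 lower, with a median of -2.64), and this call was lost when E8.5 replicate 1 or 2 or any E11.5 library was left out (adjusted p 0.0668 to 0.0912). No arm was called relative to the family between E8.5 and E9.5 (46.8% of all entries called), E10.5 and E11.5 (1.58%) or E8.5 and E10.5 (13.5%), and the smallest adjusted p-values of the arms there were 0.137, 0.172 and 0.213. The number of entries with an unadjusted p under 0.05 was 328, 89 and 186 of 571, and DESeq2 called 1 arm in each of the 3 comparisons.

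Mature 3p arms, the strands opposite to the guide strand in most let-7 hairpins, were rare. The let-7d-3p arm was the only one to pass the filter, with 16, 151 and 208 reads at E8.5, 0, 4 and 1 at E9.5, 1, 0 and 22 at E10.5, and 87, 234 and 3 at E11.5. It had more reads than let-7d-5p in E8.5 replicates 2 and 3 and in E11.5 replicate 2, and it was not called in any comparison (adjusted p 0.346 to 0.922 in edgeR). Its counts in the E9.5 libraries were at or near the floor of 3 reads. The let-7a-1-3p and let-7c-2-3p arms have the same sequence in RefSeq, and the reads were listed under let-7a-1-3p almost alone, with 99 reads of which 98 were in E8.5 replicate 3, against 2 reads for let-7c-2-3p. The let-7c-1-3p arm had 5 reads, all in 1 E11.5 library.

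Precursor entries took a small and variable part of the member counts. They held 4.48 to 15.5%, 2.75 to 5.17%, 0.530 to 0.722% and 0.852 to 2.64% of all let-7 reads over the 4 stages in order, so their part was lowest at E10.5. Of the 13 precursor entries 9 passed the filter. The entries of mir-98, let-7k, let-7i and let-7d did not, with 1, 5, 10 and 13 reads in all 12 libraries. The entry let-7k carries no arm in its name and was grouped with the precursors.

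The only precursor called in the main edgeR fit was let-7a-2, between E9.5 and E10.5. Its counts were 3, 1 and 79 at E8.5, 5, 63 and 144 at E9.5, 2, 0 and 7 at E10.5, and 61, 139 and 30 at E11.5. The log2 fold change from E9.5 to E10.5 was -6.84 (SE 1.84, adjusted p = 0.0314 in edgeR), with a library at 0 on the lower side. Without E9.5 replicate 3 the fold change was -4.92 and the adjusted p 0.350, and the call was also lost without E10.5 replicate 1 (0.0886) or 2 (0.137), with library size alone (0.0537) and in limma voom (0.217). The let-7a-1 precursor had 24, 6 and 81 reads at E8.5, 0, 1 and 144 at E9.5, 1, 0 and 8 at E10.5, and 59, 144 and 24 at E11.5. In E9.5 replicate 3 both let-7a precursors had 144 reads, while in E9.5 replicate 2 they had 1 and 63 reads.

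The precursors of let-7b and let-7e had different courses, a difference that was not tested, and neither was called in the main edgeR fit. DESeq2 called the let-7b precursor lower at E10.5 than at E8.5 (log2 fold change -3.02, adjusted p = 0.0211). The let-7b precursor stood at 149, 328 and 272 CPM at E8.5, then 162, 406 and 177 CPM at E9.5, 7.61, 42.9 and 35.1 CPM at E10.5, and 82.1, 139 and 32.5 CPM at E11.5. Its E8.5 and E9.5 libraries overlapped, with means of 250 ± 91.7 and 248 ± 137 CPM, over the step in which the mature arm rose. In reads these levels were 86, 127 and 188 at E8.5 but only 10, 38 and 7 at E9.5, where 3 reads stood for 32.0 to 75.9 CPM. The let-7e precursor had 4, 5 and 2 reads at E8.5, 3, 0 and 0 at E9.5, 5, 3 and 6 at E10.5, and 44, 144 and 33 at E11.5. In CPM its E9.5 and E11.5 libraries overlapped, since the 3 reads of E9.5 replicate 1 stood for 48.7 CPM, above the 39.7 CPM of E11.5 replicate 3. The let-7c-1 precursor had 54 to 209, 3 to 119, 2 to 12 and 172 to 176 reads over the 4 stages in order, and its smallest adjusted p was 0.0616 in edgeR, for E10.5 against E9.5. The let-7c-2 precursor had 53 to 302, 1 to 37, 2 to 7 and 41 to 159 reads over the 4 stages in order. In 3 libraries the counts of the let-7c-1 and let-7c-2 precursors lay within 1 read of each other. Their hairpins share a longest run of 23 bases, so these counts need not be specific to a locus. The precursors of let-7f-1, let-7f-2 and let-7g had at most 188, 90 and 108 reads in a library and were not called in the main edgeR fit.

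**Figure D4:**
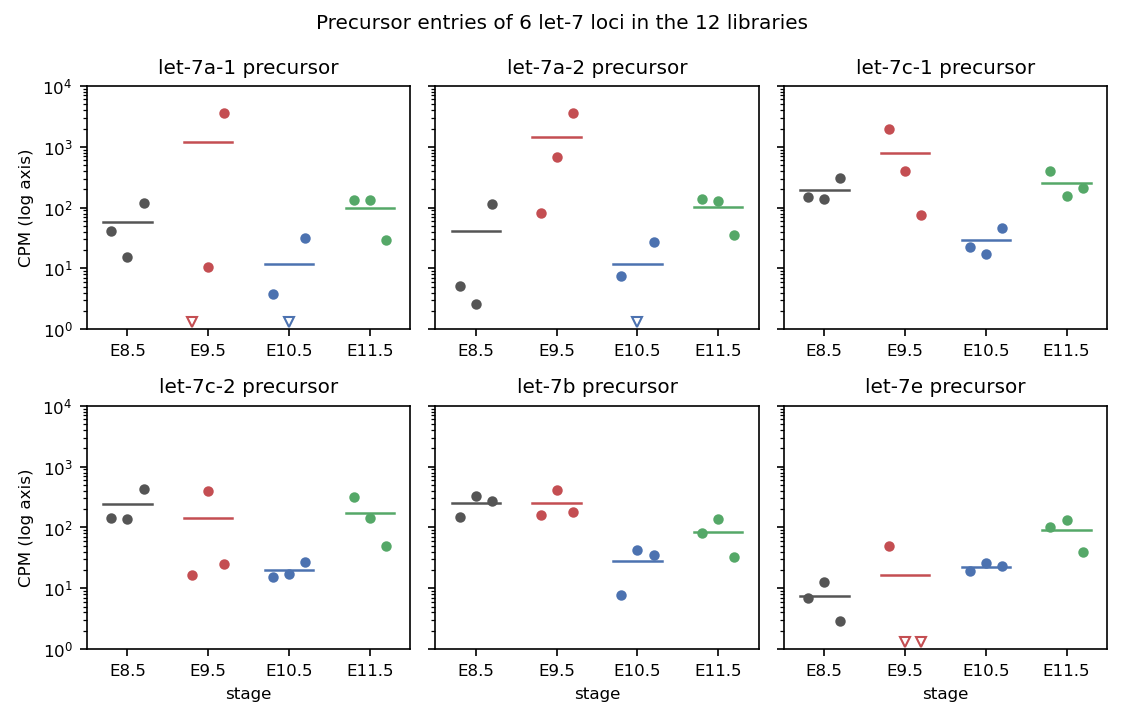
CPM (log axis) of 6 precursor entries by stage, with 1 point per library in replicate order, a line at the mean of 3 libraries and an open triangle at the bottom for a library at 0 counts. All E10.5 libraries lie at or below 46.8 CPM, and the 2 let-7a precursors share their highest value of 3641 CPM in E9.5 replicate 3.

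The hairpins of let-7e, let-7c-1 and let-7a-2 lie in clusters with miRNAs of the miR-99/100 and miR-125 families. RefSeq placed the mir-125a hairpin 367 bases from let-7e, the mir-99a hairpin 656 bases from let-7c-1, and the mir-100 and mir-125b-1 hairpins 5211 and 45114 bases from let-7a-2, each on the same strand. The miR-99/100 and miR-125 entries numbered 15, of which 13 were tested, and none was called lower in any comparison. From E8.5 to E9.5 only miR-99a-5p was called higher (log2 fold change 3.94, SE 1.08, adjusted p = 0.0282 in edgeR), 1 of 13 where 5.60% of all entries were called. None was called at E10.5 against E9.5 (4.38% of all entries) or at E11.5 against E10.5 (0.350%). Comparing E11.5 with E8.5 the calls were miR-99a-5p, miR-99b-5p and miR-125a-5p (3 of 13, against 11.6% of all entries, 30 higher and 36 lower). At E10.5 against E8.5 they were miR-99a-5p and miR-99b-5p (2 of 13, against 8.58%), and at E11.5 against E9.5 miR-99b-5p and miR-125a-5p (2 of 13, against 4.55%), all higher.

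All 3 mature 5p arms of the let-7e cluster, let-7e-5p, miR-99b-5p and miR-125a-5p, were higher at E11.5 than at E8.5. The miR-99b-5p arm averaged 3388 ± 801, 3851 ± 668, 8204 ± 2283 and 16544 ± 3592 CPM over the 4 stages in order (SD, n = 3). The miR-125a-5p arm averaged 2953 ± 731, 4542 ± 2122, 4801 ± 2521 and 15271 ± 1684 CPM at the same stages. Over that span let-7e-5p, miR-99b-5p and miR-125a-5p rose by 3.58, 2.29 and 2.37 on the log2 scale (SE 0.49, 0.41 and 0.48), and from E8.5 to E9.5 let-7e-5p alone of the 3 was called, with 0.18 for miR-99b-5p (SE 0.39) and 0.62 for miR-125a-5p (SE 0.46). That difference between the arms was not tested. The neighbours of let-7c-1 and let-7a-2 were less abundant than the let-7 arms. The miR-99a-5p arm averaged 44.7 ± 16.2, 700 ± 1036, 1512 ± 571 and 2195 ± 542 CPM, and the 3 E9.5 libraries ran from 97.4 to 1897 CPM. The miR-125b-5p arm averaged 312 ± 166, 2005 ± 1470, 1045 ± 413 and 1255 ± 169 CPM, and miR-100-5p averaged 21.9 ± 24.3, 27.5 ± 25.6, 541 ± 410 and 555 ± 88.0 CPM. Thus miR-100-5p was at or near the floor of the E9.5 libraries, where let-7a-5p had its highest mean of 23925 CPM. The mature let-7a-5p and let-7c-5p strands also come from other loci, so their counts do not measure these clusters alone.

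**Figure D5:**
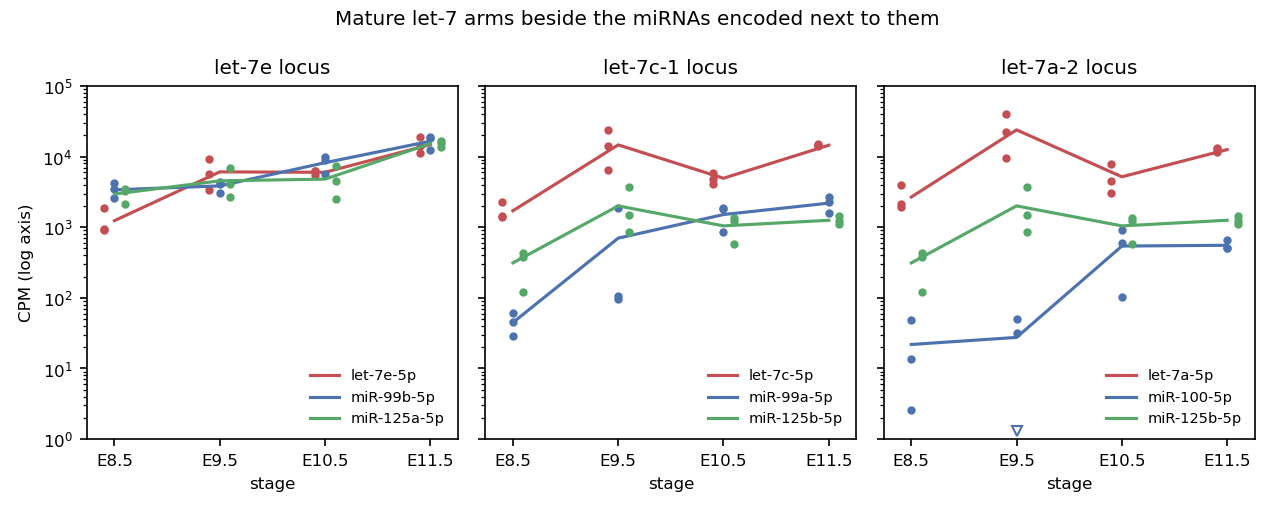
CPM (log axis) of let-7e-5p, let-7c-5p and let-7a-5p with the mature 5p arms encoded beside 1 of their loci, by stage, with points for libraries, lines through the means of 3 libraries and an open triangle for a library at 0 counts. In the let-7e panel the 3 arms end between 11256 and 19180 CPM at E11.5, and in the let-7a-2 panel miR-100-5p stays at or below 50.6 CPM over the first 2 stages.

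Likeness of course was measured for the 5 abundant arms as the Pearson correlation of log2 CPM over the 12 libraries with each of the other 570 entries tested, as a description, since the libraries share their depth and composition. The courses nearest to let-7b-5p were those of miR-21a-5p (0.89) and of the mir-6236 precursor (0.88), whose share was highest at E9.5, and its likeness to let-7e-5p was only 0.33. The course nearest to let-7f-5p was that of miR-21a-5p (0.91), and the nearest to let-7a-5p was that of let-7f-5p (0.89). For let-7c-5p the nearest were miR-23b-3p (0.91) and let-7e-5p (0.86). For let-7e-5p they were miR-200c-3p (0.86), let-7c-5p (0.86) and miR-99a-5p (0.85).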

How the data were processed

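The deposited data were 1 table of raw counts, reads per miRNA entry and library, and all 12 columns were matched through the library names. Per the study's methods the authors trimmed adapters and 4 random bases, aligned with STAR and counted with COMPSRA on mm10 (the submitters' processing notes list mm10 and GRCm39). Reads of 17 to 35 bases were kept, or up to 36 bases in E8.5 replicate 1 and E9.5 replicate 3. The random bases were not used to count molecules, so floors cover counting error only.

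The members, marker lists and miR-99/100 and miR-125 entries were chosen by name with earlier results of these data known. Every library value was given for the 9 mature 5p arms, and the 3 entries of highest correlation were the nearest courses.

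Tests used edgeR 4.0.16 (glmQLFit and glmQLFTest, R 4.3.3), TMM factors of 0.732 to 1.17, and Benjamini-Hochberg adjustment over the 571 entries passing filterByExpr (minimum count 10, minimum total 15). All libraries shared 1 fit with stage as its factor and no covariate. A call was an adjusted p under 0.05, the SE was the log2 fold change divided by the square root of F, and the prior count was 0.125. The biological coefficient of variation was 1.19 (common value). A second fit scaled libraries to their sum of the 9 mature 5p counts. The fit was tested on simulated data with a smaller spread than that of these libraries, so that test does not give its error rates here. Alternatives included limma 3.58.1 and DESeq2 1.42.0.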

Additional observations from a re-analysis of the deposited data

How the results depend on the processing

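No call changed direction under any alternative, and 395 of 439 recomputed fold changes of called entries stayed past the threshold. Counts of called let-7 entries are given here with the reported count of 5, 5, 0, 2, 1 and 4 in the order E9.5 against E8.5, E10.5 against E9.5, E11.5 against E10.5, E10.5 against E8.5, E11.5 against E9.5 and E11.5 against E8.5. Leaving out each library in turn gave 5 to 7, 1 to 8, 0 to 1, 1 to 3, 1 to 3 and 3 to 4 calls. For E10.5 against E9.5, DESeq2 called 8, limma voom 0 and a fit of the 2 stages alone 3. For E11.5 against E10.5, limma voom and the fit of 2 stages called 1 each. For E10.5 against E8.5, DESeq2 called 5 (2 higher and 3 lower) and a minimum of 10 counts in every library left 1. For E11.5 against E9.5, RLE scaling called 3, DESeq2 called 4, and library size alone, mature arms only, omission of mir-6236 and mir-6240, no filter and the minimum of 10 counts called 2 each. These calls were all lower except for 1 higher with library size alone. For these counts the cause was not tested. The share of all entries called is not given here for DESeq2, limma voom, the fit of 2 stages or the fits with a library left out. Their counts thus show only how the let-7 calls varied.

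Relative to the family sum the reported counts were 0, 1, 0, 0, 2 and 1, and leaving out each library gave 0 to 1, 0 to 1, 0 to 0, 0 to 0, 0 to 2 and 0 to 1. DESeq2 called 1 arm for E9.5 against E8.5, 1 for E11.5 against E10.5, 1 for E10.5 against E8.5 and 2 for E11.5 against E8.5. No filter called 0 for E10.5 against E9.5 and 1 for E11.5 against E9.5. The fit of 2 stages called 0 for E10.5 against E9.5, 1 for E11.5 against E10.5 and 2 for E11.5 against E8.5. A sum without the arm tested changed no count beyond 1.5 times. Setting counts under 10 to 0 moved none of the 36 stage shares beyond 1 SD. The 5 abundant arms had at least 219 reads in every library, so this setting could hardly move their shares and is no check on them.

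Same-numbered libraries of different stages did not deviate together (correlation -0.148 to 0.112 over 18 pairs, -0.135 to 0.134 for different numbers). No pairing by number was thus seen, but with 3 libraries per stage this check cannot exclude it. With the replicate number as a block, 6, 5, 0, 2, 1 and 4 let-7 entries were called, and relative to the family sum 0, 1, 0, 0, 1 and 1, with let-7e-5p lost for E11.5 against E9.5 (adjusted p = 0.0850 in edgeR). The small E9.5 libraries limit the thin arms and the precursors most, since 3 reads there stand for up to 75.9 CPM.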
